A study of Homo sapiens with 16 samples.

Results

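The genes described here are *HMOX1*, *HMOX2*, *BLVRA*, *BLVRB*, *ALAS1*, *UROD*, *CPOX*, *FECH* and *BACH1*, 9 of the 25369 genes in a table of read counts, chosen by symbol as genes of heme breakdown, heme synthesis and their control. The table covers TPC1 and K1, labelled K1 (GLAG-66) and derived from the GLAG-66 line, both human papillary thyroid carcinoma lines, TPC1 grown in RPMI and K1 in DMEM. Each line received 0.2% DMSO as the vehicle, 10 µM nutlin-3a (nutlin, an inhibitor of the p53 repressor MDM2), 25 µM GSK2830371 (an inhibitor of the phosphatase PPM1D) or both drugs, for 24 h. RNA was sequenced as strand-specific poly(A) libraries, 2 per line and treatment, 16 in all. The study asked what PPM1D inhibition adds to MDM2 inhibition, and in part whether the heme-regulated kinase HRI takes part in it.

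Heme is built in steps that begin and end in the mitochondrion. ALAS1 carries out the first and rate-limiting one outside red blood cells, UROD and CPOX act further along, and FECH inserts the iron. Heme oxygenases open the ring, releasing iron, carbon monoxide and biliverdin. The HMOX1 enzyme is the inducible form and HMOX2 the constitutive one, and the biliverdin reductases BLVRA and BLVRB act on the product. BACH1 is a transcriptional repressor that binds heme. It holds *HMOX1* down when heme is low, and NRF2 (*NFE2L2*) activates the same gene under oxidative stress.

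All 9 genes were well measured, with at least 528 counts each in every library, from totals of 30789887 to 76648552 counts in TPC1 and 28888686 to 37161241 in K1. Values below are counts of a gene per 1000000 counts of its library (CPM). Fold changes are on the log2 scale with a standard error (SE) derived from the fold change and its test statistic. A gene is called when edgeR's quasi-likelihood test gave a Benjamini-Hochberg adjusted p under 0.05 over all genes tested and the fold change was above 1.5. The study describes its replicates as independently prepared. The p-values rest on the spread between the 2 libraries of a group, estimated for each gene over all groups of the fit together. edgeR draws that estimate toward the spread of the other genes. The p-values do not measure the spread of the compared groups alone. Line and medium cannot be told apart, and in bulk RNA neither can fewer cells of a kind and less RNA per cell. The thyroid markers *PAX8* (at least 280 CPM), *FOXE1*, *KRT8* and *KRT18* were present in every library of both lines. *TSHR* had no count in any library, and *NKX2-1* had none in TPC1 and at most 0.346 CPM in K1. Of 10 markers of leukocytes, endothelium, fibroblasts and red cells, *COL1A1* alone passed 1 CPM as a group mean. The summed level of these markers was 4.69 to 5.26 CPM with DMSO and 1.06 to 1.72 CPM with the combination in TPC1, and 3.34 to 4.83 and 1.51 to 1.64 CPM in K1. *HBB* and *HBA2* had no count in any library.

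*HMOX1* (GRCh37 chromosome 22, 35777089 to 35790200, plus strand) rose in TPC1 under each treatment. The 2 DMSO libraries held 129 and 146 CPM, the nutlin libraries 440 and 459 CPM, the GSK2830371 libraries 574 and 596 CPM, and the combination libraries 874 and 462 CPM. All 6 treated libraries lay above both DMSO libraries. The rise was 1.74 ± 0.23 with nutlin (adjusted p = 0.000189, edgeR), 2.04 ± 0.23 with GSK2830371 (adjusted p = 0.00499, edgeR) and 2.33 ± 0.24 with the combination (adjusted p = 2.37e-05, edgeR), or 3.34-fold, 4.10-fold and 5.01-fold. These 3 comparisons share the DMSO libraries.

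Among the 9 genes, the GSK2830371 response of *HMOX1* was the sole one called in TPC1, against a background of 1.40% of 15273 genes. With the column's replicate number as a block, this drug had 480 called genes in place of 214, and the *HMOX1* rise remained 2.03 (adjusted p = 4.09e-06, edgeR). Nutlin had 2 of the 9 called (*HMOX1* and *BLVRB*), beside 35.5% of all genes, and the combination had 3 (*HMOX1*, *BLVRB* and *FECH*), beside 44.2%. Shares of 2 and 3 in 9 do not stand above those backgrounds.

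**Figure D1:**
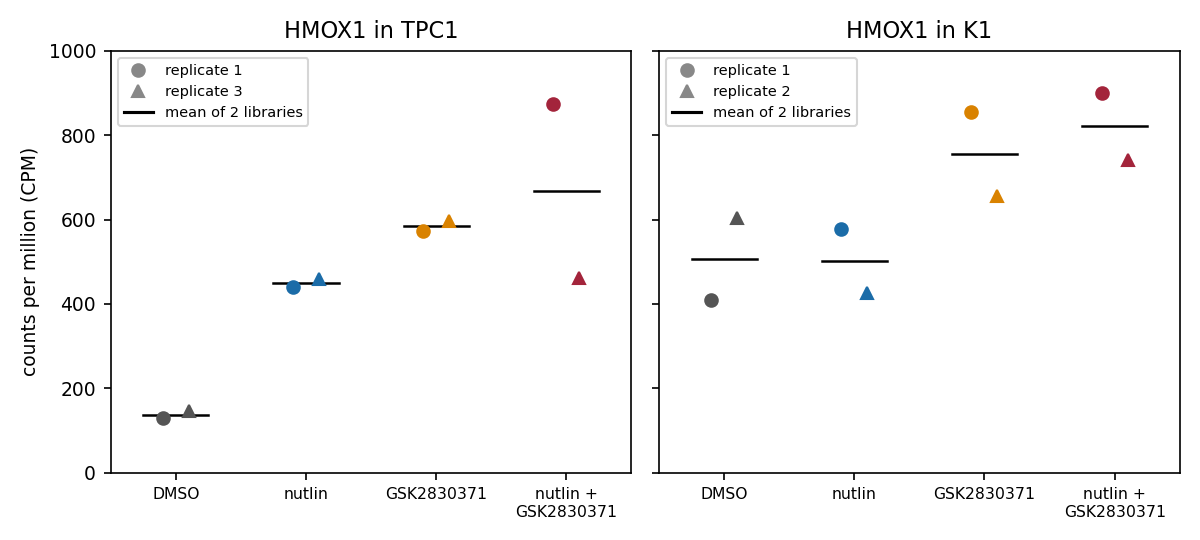
*HMOX1* level in CPM (vertical axis) in each of the 16 libraries by treatment, with TPC1 on the left and K1 on the right; symbols mark the replicate number of the column and bars the mean of 2 libraries. TPC1 starts at 129 and 146 CPM with DMSO and reaches 874 CPM in 1 of its combination libraries and 462 CPM in the other, while the K1 DMSO libraries already sit at 410 and 603 CPM.

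The TPC1 combination libraries differed from each other 1.89-fold in *HMOX1*, against at most 1.14-fold in the other 3 TPC1 groups. The SE of every *HMOX1* comparison in TPC1 includes this spread. The comparison of these combination libraries with the single drugs was unsettled. The difference of the combination from nutlin was 0.59 ± 0.23 (adjusted p = 0.0889, edgeR). With the replicate block it was 0.56 (adjusted p = 0.0138, edgeR), still short of a call. The difference from GSK2830371 was 0.29 ± 0.22 (adjusted p = 0.298, edgeR). Without the combination library numbered 3, both differences were called, at 0.97 and 0.67. Without the one numbered 1, the difference from GSK2830371 was -0.22. The order of the combination and GSK2830371 alone thus rested on 1 library.

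The joint effect in TPC1 was smaller than the sum of the separate ones on the log2 scale, with an interaction of -1.45 ± 0.32 for *HMOX1* (adjusted p = 0.027, edgeR). It was 1 of 9 called, beside 6.32% of all genes (965, and 1573 with the replicate block, where the *HMOX1* interaction had an adjusted p of 0.000366 by edgeR). Within replicate number 1 the interaction was -1.17 and within number 3 it was -2.02. The unblocked call was lost on leaving out DMSO number 1 (-1.36), either nutlin library (-1.48 and -1.42) or either GSK2830371 library (-1.48 and -1.42).

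K1 cells started from a higher *HMOX1* level and moved less. The DMSO libraries held 410 and 603 CPM, the nutlin libraries 577 and 426 CPM, the GSK2830371 libraries 856 and 655 CPM, and the combination libraries 900 and 741 CPM. DMSO and nutlin overlapped fully, and both GSK2830371 and both combination libraries lay above all 4 of them. The nutlin difference was -0.01 ± 0.17 (adjusted p = 0.985, edgeR), and its sign changed under other scalings. The GSK2830371 rise of 0.58 ± 0.17 (adjusted p = 0.0301, edgeR) fell just short of the fold limit, and the combination rise of 0.67 ± 0.17 was called (adjusted p = 0.0064, edgeR).

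Against nutlin the combination was 0.67 ± 0.17 higher in K1 (adjusted p = 0.022, edgeR), and against GSK2830371 it was 0.08 ± 0.17 (adjusted p = 0.749, edgeR). The *HMOX1* interaction was 0.09 ± 0.24 (adjusted p = 0.871, edgeR). Both K1 calls rest on few libraries. That against DMSO was lost without DMSO number 1 (0.41) or combination number 1 (0.50), and that against nutlin without nutlin number 2 (0.48) or combination number 1 (0.50). With DESeq2 in place of edgeR neither was called, with adjusted p of 0.0602 and 0.134. The GSK2830371 rise in turn passed the fold limit without DMSO number 2 (0.89) or GSK2830371 number 2 (0.77).

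None of the 9 genes was called with nutlin or with GSK2830371 in K1, where 9.27% and 2.23% of 15900 genes were. At an unadjusted p under 0.05, 3 of the 9 with nutlin (*BLVRB*, *CPOX* and *HMOX2*) and 4 with GSK2830371 (*HMOX1*, *BACH1*, *ALAS1* and *BLVRB*) passed, beside 39.9% and 31.3% of all genes, and DESeq2 called none of the 9 in either. With the combination 1 of 9 was called (*HMOX1*), beside 15.7% of all genes.

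The rise of *HMOX1* differed between the lines in the fit of all 16 libraries. With DMSO, K1 was higher than TPC1 by 1.87 ± 0.24 (adjusted p = 2.62e-06, edgeR). Taken as K1 minus TPC1, the nutlin response differed by -1.78 ± 0.33 (adjusted p = 0.000543), the GSK2830371 response by -1.45 ± 0.33 (adjusted p = 0.0254) and the combination response by -1.68 ± 0.33 (adjusted p = 0.000604), all by edgeR. The GSK2830371 difference lost its call on leaving out any of 5 libraries, both TPC1 and both K1 GSK2830371 libraries and K1 DMSO number 2 (-1.14 to -1.66). What the combination added to nutlin differed by 0.10 ± 0.32 (adjusted p = 0.928). The interactions differed by 1.54 ± 0.46 (adjusted p = 0.0771), which was called with the replicate block (1.58, adjusted p = 0.0183), by edgeR in each case. The 4 combination libraries spanned 462 to 900 CPM, and those of the lines overlapped.

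*HMOX2* (chromosome 16, 4526399 to 4560348, plus strand) was lowest with the combination in TPC1. Its libraries held 93.3 and 111 CPM with DMSO, 109 and 112 CPM with nutlin, 77.5 and 86.0 CPM with GSK2830371, and 71.7 and 68.1 CPM with the combination. The combination libraries were below every other TPC1 library. Compared with nutlin the combination was lower by -0.64 ± 0.10 (adjusted p = 0.00214, edgeR), 1 of 9 called beside 12.1% of all genes. Compared with DMSO it fell by 0.50 ± 0.10 on the log2 scale (adjusted p = 0.00187, edgeR), under the fold limit, which it passed without DMSO number 1 (-0.62). With nutlin the difference was 0.14 ± 0.10 (adjusted p = 0.259, edgeR) and with GSK2830371 -0.37 ± 0.10 (adjusted p = 0.0785, edgeR). In K1 all 8 libraries held 57.7 to 68.9 CPM and no comparison among treatments had an adjusted p under 0.05. The combination response differed between the lines by 0.56 ± 0.14 (adjusted p = 0.00396, edgeR), again under the fold limit. It passed that limit when libraries were scaled by total (0.67), without TPC1 DMSO number 1 (0.70) and without K1 DMSO number 2 (0.62).

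Per kilobase of the canonical transcript (1554 bases for *HMOX1* and 1673 for *HMOX2*), *HMOX1* made up 58.7% and 59.8% of the summed level of the 2 oxygenases in TPC1 with DMSO. It made up 81.4% and 81.6% with nutlin, 88.2% and 88.9% with GSK2830371, and 88.0% and 92.9% with the combination. In K1 the share was 87.3% to 93.6% over all 8 libraries. The TPC1 GSK2830371 and combination libraries thus fell in the range that K1 held throughout.

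Of the biliverdin reductases, *BLVRB* (chromosome 19, 40953675 to 40971652, minus strand) rose in TPC1. It held 76.6 and 87.5 CPM with DMSO, 187 and 191 CPM with nutlin, 104 and 102 CPM with GSK2830371, and 180 and 171 CPM with the combination. The 4 libraries with nutlin in the medium were all at 171 CPM or more and the 4 without it at or below 104 CPM. The rise was 1.23 ± 0.08 with nutlin (adjusted p = 2.28e-06, edgeR) and 1.15 ± 0.08 with the combination (adjusted p = 2.54e-06, edgeR), and the combination stood 0.87 ± 0.08 above GSK2830371 (adjusted p = 1.84e-05, edgeR). With GSK2830371 alone the difference was 0.27 ± 0.08 (adjusted p = 0.11, edgeR).

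K1 held *BLVRB* at 50.6 and 48.5 CPM with DMSO, 53.2 and 61.0 CPM with nutlin, 59.5 and 56.1 CPM with GSK2830371, and 62.6 and 68.8 CPM with the combination. The combination rise of 0.38 ± 0.08 (adjusted p = 0.0012, edgeR) was below the fold limit. The lines differed in the nutlin response by -1.05 ± 0.13 (adjusted p = 9.97e-06, edgeR) and in the combination response by -0.80 ± 0.13 (adjusted p = 9.31e-05, edgeR), K1 minus TPC1.

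*BLVRA*, the other reductase, had 27.7 to 39.9 CPM in TPC1 libraries, and the K1 libraries spanned 29.6 to 36.6 CPM. In TPC1 both nutlin libraries (39.6 and 39.9 CPM) were above all others, a difference of 0.40 ± 0.10 (adjusted p = 0.00851, edgeR) under the fold limit. In K1 the combination differed from GSK2830371 by -0.30 ± 0.07 (adjusted p = 0.00231, edgeR), also under that limit.

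*FECH* (chromosome 18, 55211609 to 55253934, minus strand), the last enzyme of synthesis, rose with the combination in TPC1. TPC1 held 63.5 and 68.3 CPM with DMSO, 91.5 and 94.1 CPM with nutlin, 72.9 and 74.7 CPM with GSK2830371, and 102 and 109 CPM with the combination. The 4 groups did not overlap. The difference from DMSO was 0.53 ± 0.08 with nutlin (adjusted p = 0.000435, edgeR), under the fold limit unless DMSO number 3 was left out (0.61), and 0.74 ± 0.08 with the combination (adjusted p = 3.68e-05, edgeR). Above GSK2830371 the combination stood 0.62 ± 0.08 (adjusted p = 0.000135, edgeR), which with *BLVRB* made 2 of 9 called beside 38.5% of all genes. That call was lost without combination number 3 (0.56) and when libraries were scaled by total alone (0.52), a scaling that moved the median of all genes in this comparison to -0.11.

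K1 had 23.2 to 30.3 CPM of *FECH* in its 8 libraries, with no treatment comparison at an adjusted p under 0.05. The lines differed in the nutlin response by -0.67 ± 0.12 (adjusted p = 0.000439, edgeR) and in the combination response by -0.64 ± 0.12 (adjusted p = 0.000451, edgeR). The latter call was lost when libraries were scaled by total (-0.53) and without TPC1 DMSO number 1 (-0.56). Over the 9 genes the line differences called were 3 for nutlin beside 19.2% of 16738 genes, 2 for GSK2830371 beside 2.18%, 3 for the combination beside 25.7%, none for what the combination added to nutlin beside 5.11%, and 1 for the interaction beside 3.14%. In the one with none called by edgeR, 2 of the 9 had an unadjusted p under 0.05, *CPOX* and *HMOX2*, beside 21.6% of all genes. The *HMOX2* difference was 0.56 ± 0.14 (adjusted p = 0.017, edgeR), short of the fold limit, which it passed when libraries were scaled by total (0.62) and without TPC1 nutlin number 1 (0.59).

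**Figure D2:**
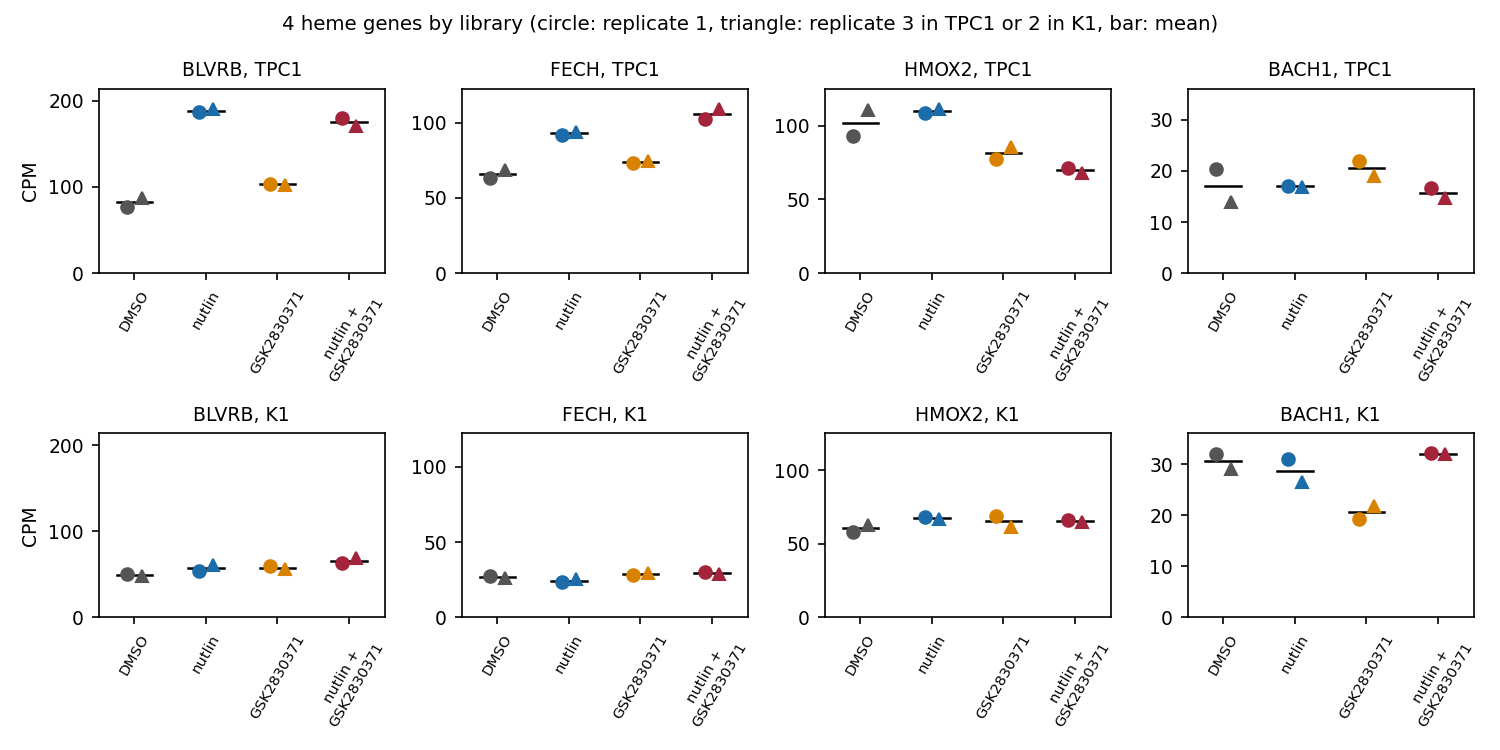
CPM (vertical axes) of *BLVRB*, *FECH*, *HMOX2* and *BACH1* in each library by treatment, TPC1 above and K1 below, with the axis of a gene shared by both lines; symbols mark the replicate number and bars the mean of 2 libraries. *BLVRB* in TPC1 is at 171 CPM or more with nutlin or the combination and at most 104 CPM without nutlin, and *BACH1* in K1 is lowest with GSK2830371, at 19.3 and 21.8 CPM.

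The upstream sequences of *BLVRB* and *FECH* are shown because these 2 genes, besides *HMOX1*, were called with the combination in TPC1. The RefSeq promoter table (GRCh38.p14) held 11 start sites of 8 of the 9 genes, *HMOX1* not among them, and the 250 bases before each start were placed on GRCh37 by exact match. Capitals mark a match to an antioxidant response element core. Both are written along the strand of the gene.

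BLVRB, GRCh37 chr19:40971653-40971902, minus strand: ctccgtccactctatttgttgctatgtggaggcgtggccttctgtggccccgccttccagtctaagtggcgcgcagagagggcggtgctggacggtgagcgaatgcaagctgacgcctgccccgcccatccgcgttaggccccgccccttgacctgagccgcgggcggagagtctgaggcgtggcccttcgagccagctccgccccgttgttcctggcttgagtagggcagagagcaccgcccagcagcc
FECH, GRCh37 chr18:55253935-55254184, minus strand: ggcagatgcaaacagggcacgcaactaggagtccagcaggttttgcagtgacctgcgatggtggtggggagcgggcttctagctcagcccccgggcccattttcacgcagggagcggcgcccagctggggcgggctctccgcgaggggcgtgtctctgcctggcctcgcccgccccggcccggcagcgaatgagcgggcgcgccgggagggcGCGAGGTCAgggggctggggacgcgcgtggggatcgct

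Of these stretches 67.2% of bases in *BLVRB* and 72.4% in *FECH* were G or C. The motifs searched on both strands were the antioxidant response element core TGACNNNGC, a Maf recognition element type GCTGAGTCA and the core TGATGNAA. The last belongs to the element bound by ATF4 and C/EBP factors. Every match of GCTGAGTCA is also a match of the antioxidant core, read on the other strand. Among the 11 promoters the antioxidant core matched once, in *FECH*, 38 bases before the start. It matched 10.9% of 35116 RefSeq promoters of this length. The other motifs matched in none of the 11 and in 0.456% and 3.14% of all promoters. A match of letters is a description and not a binding site.

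*ALAS1*, *UROD* and *CPOX* changed little. *ALAS1* lay between 70.5 and 90.4 CPM in TPC1 libraries and between 90.6 and 113 CPM in those of K1, and its one adjusted p under 0.05 among treatments was for GSK2830371 in K1 (0.22 ± 0.06, adjusted p = 0.0254, edgeR). *UROD* held 62.8 and 73.4 CPM with DMSO and 54.9 and 53.9 CPM with the combination in TPC1, a difference of -0.27 ± 0.10 (adjusted p = 0.0353, edgeR). In K1 it ranged from 85.1 to 98.2 CPM.

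*CPOX* was lower with the combination in both lines, below the fold limit in each. TPC1 held 40.4 and 35.1 CPM with DMSO and 27.3 and 28.0 CPM with the combination, which is -0.39 ± 0.09 (adjusted p = 0.00309, edgeR). K1 held 48.5 and 48.1 CPM with DMSO, 40.2 and 40.7 CPM with nutlin, 46.8 and 46.9 CPM with GSK2830371, and 41.8 and 41.9 CPM with the combination. The K1 difference was -0.24 ± 0.06 with nutlin (adjusted p = 0.00588, edgeR) and -0.24 ± 0.06 with the combination (adjusted p = 0.00437, edgeR). The 4 K1 libraries with nutlin were below the 4 without it.

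**Figure D3:**
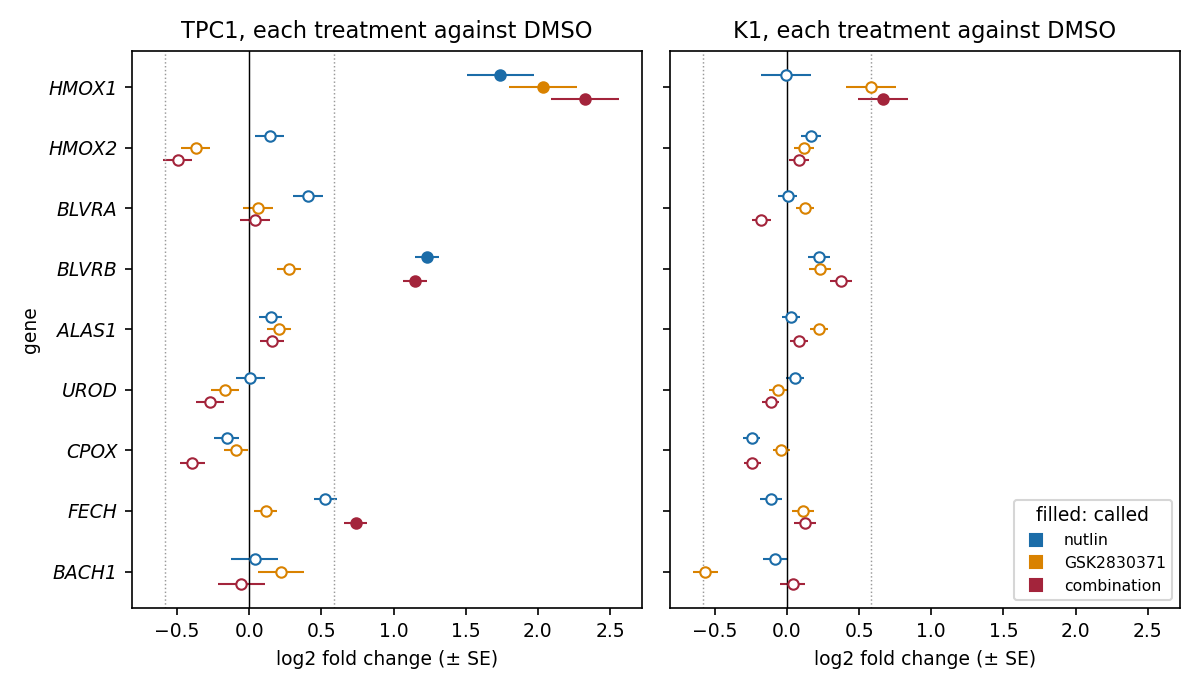
Log2 fold change against DMSO (horizontal axis; points with bars of 1 SE) of the 9 heme genes (vertical axis) with nutlin, GSK2830371 and the combination, TPC1 on the left and K1 on the right; filled points are called and dotted lines mark the 1.5-fold limit. *HMOX1* in TPC1 runs from 1.74 to 2.33, and the single filled point in K1 is *HMOX1* with the combination, at 0.67.

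*BACH1* (chromosome 21, 30671243 to 30718469, plus strand), the repressor of *HMOX1*, was lower with GSK2830371 in K1. Its libraries held 32.0 and 29.1 CPM with DMSO, 30.9 and 26.4 CPM with nutlin, 19.3 and 21.8 CPM with GSK2830371, and 32.2 and 32.0 CPM with the combination. The 2 GSK2830371 libraries were below the other 6. The fall was 0.56 ± 0.09 on the log2 scale (log2 fold change -0.56, adjusted p = 0.001, edgeR), under the fold limit, which it passed without DMSO number 2 (-0.63) or GSK2830371 number 2 (-0.65). The combination stood 0.60 ± 0.09 above GSK2830371 (adjusted p = 0.000107, edgeR), 1 of 9 called beside 13.1% of all genes, and the interaction was 0.69 ± 0.12 (adjusted p = 0.00953, edgeR), 1 of 9 called beside 2.44%. For the combination against nutlin the single call of 9 was *HMOX1*, beside 2.68%.

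Both *BACH1* calls were lost once each library's trend with GC content and transcript length was removed, at 0.39 and 0.34. That step also took the called genes of all genes from 354 to 130 for GSK2830371 and from 388 to 132 for the interaction in K1. The canonical *BACH1* transcript has 38.2% G and C, the lowest of the 9, and the part of base composition in this result was not tested beyond that. The first call was also lost without GSK2830371 number 1 (0.52), and the second without nutlin number 2 (0.59) or combination number 2 (0.70, adjusted p = 0.0538, edgeR).

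TPC1 held *BACH1* at 20.4 and 13.8 CPM with DMSO, 17.1 and 16.8 CPM with nutlin, 22.0 and 19.0 CPM with GSK2830371, and 16.8 and 14.8 CPM with the combination. No comparison there had an adjusted p under 0.05 in the fit without the replicate block. Within replicate numbers 1 and 3, the combination differed from GSK2830371 by -0.40 and -0.36 in log2 CPM, and nutlin from DMSO by -0.25 and 0.28. Blocked values of *BACH1* in TPC1 are not given. The GSK2830371 response of *BACH1* differed between the lines by -0.79 ± 0.18 (adjusted p = 0.0276, edgeR) and the interaction by 1.01 ± 0.26 (adjusted p = 0.0449, edgeR). On leaving out single libraries the first lost its call in 5 of 16 cases (-0.54 to -0.86) and the second in 13 of 16 (0.76 to 1.11). The second was also lost with DESeq2's size factors (0.99, adjusted p = 0.0555, edgeR). Removal of the trend with GC content and length, which took away both K1 calls, was not run for either line difference.

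With DMSO alone, 5 of the 9 genes were called between the lines, beside 46.2% of all genes. *HMOX1* and *BACH1* were higher in K1, by 1.87 ± 0.24 and 0.85 ± 0.13. *FECH*, *HMOX2* and *BLVRB* were lower in K1, by -1.32 ± 0.09, -0.77 ± 0.10 and -0.74 ± 0.09 on the log2 scale. The transcripts of the repressor and its target were both at the higher level in K1. Any part of *BACH1* in the *HMOX1* difference between the lines was not tested.

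On the scale of CPM per kilobase, the DMSO order in TPC1 ran from *BLVRB* (103 ± 9.69, SD, n = 2) and *HMOX1* (88.5 ± 7.97) through *HMOX2* (61.0 ± 7.45), *UROD* (57.1 ± 6.32), *ALAS1* (30.6 ± 1.36), *BLVRA* (28.5 ± 3.80), *CPOX* (13.9 ± 1.40) and *FECH* (8.57 ± 0.439) to *BACH1* (3.04 ± 0.821). The ranges of mean ± SD overlapped between *BLVRB* and *HMOX1*, *HMOX2* and *UROD*, and *ALAS1* and *BLVRA*. In K1 *HMOX1* led at 326 ± 88.1, followed by *UROD* at 77.9 ± 4.03 and *BLVRB* at 62.0 ± 1.82. *ALAS1* (40.1 ± 2.75) and *HMOX2* (36.1 ± 2.24) overlapped, and *BLVRA* (31.2 ± 0.333), *CPOX* (17.8 ± 0.116), *BACH1* (5.44 ± 0.375) and *FECH* (3.45 ± 0.132) closed the order.

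The rest of the pathway was followed in lists written from general knowledge, here for the combination against DMSO. As background, 22.5% of all genes were called higher and 21.7% lower in TPC1, and 7.62% and 8.09% in K1, with a median log2 fold change of all genes of 0.0035 and 0.012.

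Of 12 heme transport genes, 5 rose and 3 fell in TPC1, and 2 rose and 1 fell in K1, with list medians of 0.23 and -0.031. *SLC48A1*, a heme transporter of endolysosomes, rose by 2.32 ± 0.10 in TPC1 and 0.76 ± 0.07 in K1. *ABCB6*, a porphyrin transporter, rose by 1.73 ± 0.08 and 0.92 ± 0.09. The exporter gene *FLVCR1* changed by -1.23 ± 0.11 in TPC1. *ABCG2*, whose product exports porphyrins, moved in opposite directions in the lines, by 0.72 ± 0.16 in TPC1 (adjusted p = 0.00358, edgeR) and -0.61 ± 0.10 in K1. The others passed with an adjusted p of 0.000223 or less by edgeR, as did *ABCG2* in K1.

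Of 14 iron genes, 4 rose and 4 fell in TPC1 and 2 rose in K1 (list medians -0.19 and 0.015). *ISCU*, the scaffold of iron-sulfur cluster assembly, rose by 2.31 ± 0.09 and 0.90 ± 0.06, and *SLC40A1*, the iron exporter ferroportin, by 1.28 ± 0.21 and 1.47 ± 0.20 from a DMSO mean of 1.19 and 1.48 CPM. *STEAP3*, an iron reductase, changed by -1.36 ± 0.10 in TPC1.

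The list of 9 *BACH1* and NRF2 control genes had 2 risers in TPC1 and 1 in K1 (list medians -0.056 and 0.11). *MAFK*, a small Maf partner of both factors, rose by 0.71 ± 0.09 in TPC1 and 0.66 ± 0.07 in K1, and *NFE2L1* by 0.75 ± 0.10 in TPC1. *NFE2L2* itself differed by 0.020 ± 0.10 in TPC1 and -0.012 ± 0.06 in K1, and *KEAP1*, which directs NRF2 to degradation, by -0.19 ± 0.08 and 0.11 ± 0.05, none of them with an adjusted p under 0.05 (0.0536 to 0.894, edgeR).

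Of 15 other reported targets of these factors, 5 rose and 1 fell in TPC1 and 5 rose in K1 (list medians 0.40 and 0.29). *AKR1B10* rose by 5.06 ± 0.15 and 2.14 ± 0.26, from a DMSO mean of 0.896 and 0.766 CPM. *SLC7A11*, the cystine transporter, rose by 1.58 ± 0.22 and 1.33 ± 0.21, *SQSTM1* by 1.43 ± 0.14 in TPC1 and *AKR1C1* by 0.83 ± 0.09 in K1. *AKR1B10* and *AKR1C1* have closely similar relatives that can share reads, so their counts are uncertain.

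In the HRI list of 10 genes, 3 rose and 1 fell in TPC1 and 3 rose in K1 (list medians 0.25 and 0.22). *PPP1R15A*, which directs dephosphorylation of eIF2α, rose by 2.57 ± 0.16 and 0.79 ± 0.06, and *ATF4* by 0.67 ± 0.09 and 0.95 ± 0.06. *EIF2S1*, the gene of eIF2α, changed by -0.94 ± 0.09 in TPC1, and *EIF2AK3*, another eIF2α kinase, by 0.68 ± 0.07 in K1. The HRI gene *EIF2AK1* differed by -0.45 ± 0.09 in TPC1 (adjusted p = 0.00142, edgeR) and by 0.25 ± 0.06 in K1 (adjusted p = 0.00268, edgeR), both under the fold limit. These are transcript levels and do not measure kinase activity.

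**Figure D4:**
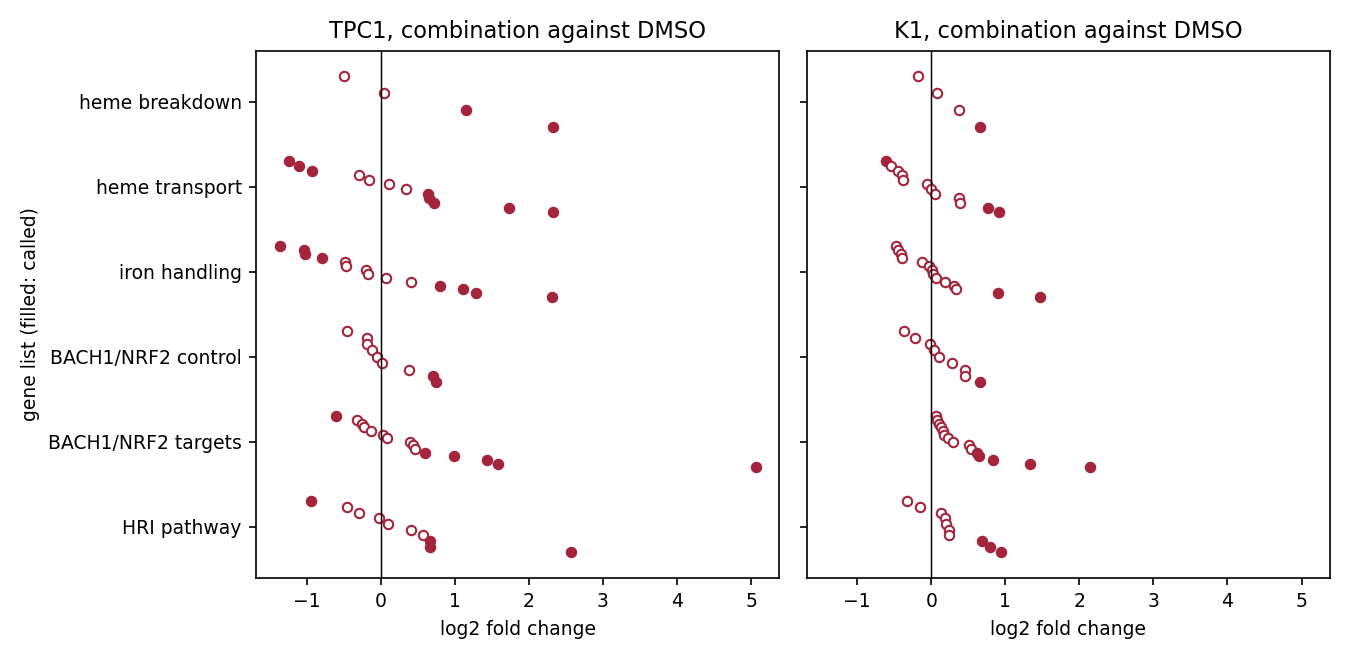
Log2 fold change of the combination against DMSO (horizontal axis) of each measured gene, 1 point per gene, by list (vertical axis), TPC1 on the left and K1 on the right; filled points are called. In heme breakdown *HMOX1* is the point farthest to the right in both lines (2.33 and 0.67), and in the *BACH1* and NRF2 target list it is *AKR1B10* (5.06 and 2.14).

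Across the 8 TPC1 libraries, the genes whose log2(CPM + 0.5) followed that of *HMOX1* most closely among 10473 genes were *STK40* (Pearson's r = 0.986), *ELOVL7* (0.978), *CHST15* (0.974), *UBOX5* (0.967) and *FAM78A* (0.965). Across the 8 K1 libraries, among 10573 genes, they were *PYCR1* (0.980), *SLC35E4* (0.974), *MT2A* (0.968), *STRAP* (0.964) and *MRPL45* (0.959). A high r does not mean a change of like size. From DMSO to the combination in TPC1, mean *HMOX1* went from 138 to 668 CPM, *STK40* from 98.4 to 110 CPM and *FAM78A* from 11.2 to 17.3 CPM. In K1 mean *STRAP* went from 208 to 226 CPM and *PYCR1* from 56.8 to 85.8 CPM. The 8 libraries of a line fall into 4 treatment groups and are not 8 independent conditions, so no p is given. Each r is over single libraries and reflects likeness within treatment groups as well as between them. In the other line the same genes had an r of -0.42 to 0.79. Of the other 8 heme genes, *ALAS1* was closest to *HMOX1* in both lines, with an r of 0.731 in TPC1 and 0.816 in K1. Among all genes compared it ranked only 738 of 10473 in TPC1 and 305 of 10573 in K1.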

How the data were processed

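The authors aligned reads to GRCh37 with TopHat2 2.0.13, removed those of low mapping quality with SAMtools (1.3.1 in the submitters' processing notes, an older version in the methods) and counted them per gene by strand with HTSeq 0.6.1, so the deposited values are raw read counts without normalization. Columns were matched to samples by name. The 4 TPC1 columns numbered 3, a number no TPC1 label holds, were matched to their treatment only. Genes above 0.1 CPM in at least 2 libraries were kept, 15273 in TPC1, 15900 in K1 and 16738 in the fit of all 16 libraries, all 9 heme genes among them. The 8 libraries of a line were fitted together across all genes with TMM scaling and edgeR 4.0.16 (R 4.3.3), and the differences between lines in the 16-library fit. Alternatives were DESeq2 1.42.0 and its size factors, scaling by total, no filter, a replicate block, removal of trends with GC content and length, the compared groups alone, and leaving out each library. The trend removal and the compared groups alone were run within each line and not in the 16-library fit. Whether replicate numbers pair the libraries was checked by correlating, across genes, the log2 difference of the 2 numbers between treatments. In TPC1 every correlation was between 0.496 and 0.696, so blocked values are given for some of the *HMOX1* results there. The TPC1 values of the other heme genes are from the fit without the block. The TPC1 columns numbered 3 are also the deeper ones (at least 62853375 counts, against at most 36896529 for those numbered 1). The fit was tested on simulated counts with independent libraries and log2 changes of 1 or 1.5. It recovered 90% to 98% of the changed genes, with 2 to 20 false calls. No effect of replicate number was simulated, so this test does not cover the pairing in TPC1. Coordinates and transcript lengths are of GENCODE canonical transcripts on GRCh37, and promoter sequences are from RefSeq (GRCh38.p14).

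The 9 genes and the lists were chosen with earlier results of these data known. Besides them the text names, by rule, *EIF2AK1*, *NFE2L2*, *KEAP1* and *ATF4*, and per line and list up to 3 genes called with the combination, those with the largest change whose group means reach 1 CPM. It also names the 5 genes per line with a mean of at least 5 CPM that were most like *HMOX1*. The remaining genes of the heme synthesis list are not reported here.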

Additional observations from a re-analysis of the deposited data

Results flagged for a closer look

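These responses differed between the lines with an adjusted p under 0.05 by edgeR's quasi-likelihood test in the fit of all 16 libraries, given here as the K1 minus the TPC1 log2 fold change. The nutlin response differed for *HMOX1* (-1.78), *BLVRB* (-1.05), *FECH* (-0.67) and *BLVRA* (-0.43). The GSK2830371 response differed for *HMOX1* (-1.45) and *BACH1* (-0.79), and the combination response for *HMOX1* (-1.68), *BLVRB* (-0.80), *FECH* (-0.64) and *HMOX2* (0.56). What the combination added to nutlin differed for *HMOX2* (0.56), and the interaction of the drugs for *BACH1* (1.01). The *BLVRA* difference and both of *HMOX2* were under the 1.5-fold limit. None of these line differences was fitted with the trend with GC content and length removed. With 2 libraries in a group, no search for single outlying libraries was made.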

How the results depend on the processing

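The *HMOX1* rises in TPC1 with each treatment, and the line differences in its nutlin and combination responses, kept their call in every alternative run. For the line differences these did not include removal of the GC and length trend or fits of the compared groups alone. With the replicate block the K1 minus TPC1 difference of its interaction was called (1.58), as it was without the filter (1.55). In K1 the block changed no member's call. There the correlations were -0.36 to -0.29 between DMSO and the treatments and 0.15 to 0.38 among the treatments. The numbers thus did not pair the libraries across all 4 groups, and a difference shared by the treatments but reversed in DMSO was not modelled. The unfiltered fit called *HMOX1* with GSK2830371 in K1 (0.59), which made 1 gene of 9. DESeq2 called it neither for the combination against DMSO (0.66) nor against nutlin (0.66), leaving 0 of 9 in each. The K1 nutlin difference of *HMOX1* turned to 0.0036 with DESeq2's size factors, 0.0041 with DESeq2, 0.033 with the GC and length trend removed and 0.012 with the block added. With that trend removed, with or without the block, 0 of 9 were called in K1 for the combination against GSK2830371 and for the interaction, and scaling by total left 1 of 9 in TPC1 for the combination against GSK2830371. The cause was not tested.

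With 1 library left out at a time, the remaining one of its group being assumed to vary like the others, *HMOX1* in K1 ranged from -0.26 to 0.30 for nutlin, 0.33 to 0.89 for GSK2830371, 0.41 to 0.97 for the combination, 0.48 to 0.89 for the combination against nutlin, -0.10 to 0.29 against GSK2830371 and -0.22 to 0.34 for the interaction. In TPC1 it ranged from 0.075 to 0.97 for the combination against nutlin, -0.22 to 0.67 against GSK2830371 and -1.96 to -1.07 for the interaction. The line differences ranged from -1.70 to -1.14 for GSK2830371, -0.29 to 0.60 for the combination against nutlin and 1.17 to 2.05 for the interaction. The number of the 9 genes called ranged from 0 to 2 in K1 for GSK2830371, from 0 to 1 in K1 for the combination against DMSO, nutlin and GSK2830371 and for the interaction, and in TPC1 from 1 to 2 for the combination against nutlin and 0 to 2 for the interaction. Over all genes, the calls for GSK2830371 in TPC1 numbered 214, and 480 with the block, 341 with the trend removed, 505 with both, 377 without the filter and 106 from the 2 groups alone. Those of the TPC1 interaction numbered 965, and 1573 with the block or 1551 with both. For the line differences they went from 365 to 613 with the block and 611 without the filter (GSK2830371), and from 525 to 1268 and 1124 (interaction). Fits of the compared groups alone were not run for the interactions, which need all 4 groups, nor for the line differences. Counting error is small at these depths, and the 2 libraries per group limit the precision.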
